A study of Mus musculus with 8 samples.

Results

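The BCL2 family decides whether a cell keeps its mitochondria intact or dies by apoptosis, and 10 of its genes were followed here in mouse group 2 innate lymphoid cells (ILC2s): Bcl2, Bcl2l1, Mcl1, Bcl2a1b, Bcl2a1d, Bcl2l11, Pmaip1, Bad, Bid and Bak1. They were chosen by name for their roles, with earlier results of these data known, and Bax and Bbc3 were left out. The members were 10 of the 25367 genes in the table, and all 10 passed the filter on low counts that left 15095 genes to test. RNA-seq of total RNA covered 8 libraries of wild-type C57BL/6 ILC2s sorted from the large intestine, which the labels call colon. The 4 SC-57461A libraries came from cells given SC-57461A for 16 hours, and the 4 vehicle libraries from cells given vehicle alone. SC-57461A blocks leukotriene A4 hydrolase, through which cells form leukotriene B4, a lipid signal. Before that, both groups had spent 5 days in medium with 4 cytokines at 10 ng/mL apiece (IL-33, IL-25, IL-7 and IL-2), so every value describes stimulated cells. Whether replicates stem from separate mice or cultures is not in the labels, so a p-value here speaks only of library-to-library spread, part or all of which may be technical.

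The proteins act by binding one another on the outer mitochondrial membrane. Pro-survival members (BCL-2, BCL-XL from Bcl2l1, MCL-1 and A1 from the Bcl2a1 genes) hold the pore-forming effectors BAX and BAK in check. BH3-only members (BIM from Bcl2l11, NOXA from Pmaip1, BAD and BID) bind the pro-survival proteins, and some of them can activate the effectors directly, after which cytochrome c leaves the mitochondria and caspases are activated. In lymphocytes, cytokines that signal through the common gamma chain, IL-2 and IL-7 among them, are known to keep cells alive in part through BCL-2 and MCL-1. Much of the family is controlled by protein turnover, phosphorylation or cleavage, none of which RNA levels show.

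Independently of treatment, the libraries parted into sets A and B, each with 2 libraries of either treatment. Set A held SC-57461A replicates 2 and 3 and vehicle replicates 1 and 2, with summed FPKM of 390628 to 428541, and set B held SC-57461A replicates 1 and 4 and vehicle replicates 3 and 4, with 316414 to 336044. FPKM is the authors' level per gene length and library size. Fold changes of the 10 genes are therefore given from the edgeR fit of treatment alone (the pooled fit), from an edgeR fit with library set as a term (the set-adjusted fit) and from each set alone. The pooled fit called 50 genes at a Benjamini-Hochberg adjusted p under 0.05, which is 0.331% of the genes tested (0.272% higher and 0.0596% lower). The set-adjusted fit called 804, or 5.33% (2.83% higher and 2.5% lower). Library totals were 47376196 to 52564876 counts with SC-57461A and 50313937 to 71155654 with vehicle, so the limit that a count of 0 allows (3 counts) stood at 0.0422 to 0.0633 CPM by library totals, where CPM are counts scaled to library size. Such limits cover counting error only.

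Markers matched the labelled cell type. The 12 ILC2 markers listed, among them Gata3, Il1rl1 and Il13, summed to 18057 to 19289 CPM with SC-57461A and 15747 to 18467 CPM with vehicle, and none was at 0. Markers of other cells were low beside these, and not every list fell in set B. Endothelial genes summed to 66.2 to 67.7 CPM (SC-57461A) and 74.4 to 75.1 CPM (vehicle) in set A. In set B they summed to 76.7 to 80.7 CPM (SC-57461A) and 77.2 to 85.2 CPM (vehicle), though Cdh5 and Kdr were at 0. T cell genes summed to 10.7 to 16.8 CPM over all libraries. The 5 macrophage and monocyte genes went with the sets. They summed to 17.5 to 34.5 CPM (SC-57461A) and 19.6 to 30.01 CPM (vehicle) in set A. In set B they summed to 0.0787 to 0.169 CPM (SC-57461A) and 0.141 to 0.293 CPM (vehicle), and Lyz2 and Csf1r were at 0. The sum of the 5 epithelial genes also went with treatment in set A, at 30.5 to 37.6 CPM with SC-57461A and 12.0 to 18.4 CPM with vehicle. There Krt8, Krt19 and Muc2 were higher with SC-57461A. Cdh1 overlapped (139 and 73 counts with SC-57461A, 77 and 81 with vehicle), and Epcam was not higher (438 and 555 against 575 and 562). In set B the 5 genes summed to 7.49 to 10.2 CPM with SC-57461A and 11.0 to 13.7 CPM with vehicle, and Krt8, Krt19 and Cdh1 were at 0. Of 4 mast cell genes listed, 2 were in the table, Kit and Cpa3, and Kit also marks lymphoid progenitors. Kit made up nearly all of their sum, at 8408 to 33919 counts over the libraries. The sum was lower with SC-57461A within both sets, in set A at 160 to 209 CPM with SC-57461A and 255 to 261 CPM with vehicle. In set B it was 360 to 370 CPM with SC-57461A and 407 to 477 CPM with vehicle. Cpa3 was at 0 in every SC-57461A library and at 0 to 12 counts with vehicle. The part of these cells in the results was not tested. In bulk RNA, fewer cells of a type and less RNA per cell cannot be told apart.

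The Bcl2a1 genes, which encode the pro-survival protein A1, are near-copies in the mouse, and their sequences are shown because they limit what a read can tell. Bcl2a1b (ENSMUSG00000089929, mm10 chr9:89199209-89207827, plus strand) and Bcl2a1d (ENSMUSG00000099974, chr9:88723285-88731914, minus strand) were 99.1% identical over 817 aligned transcript bases. The third copy in the table, Bcl2a1a, was 98.2% identical to Bcl2a1b and 98.8% identical to Bcl2a1d. Over the 519 coding bases of Bcl2a1b and Bcl2a1d, 6 differed (98.8% identity), and the longest identical run was 217 bases. Counted from 1 at the first coding base, with the base of Bcl2a1b first, the differences were G4T, T48C, A94C, G312A, C381G and T490A. The first 90 coding bases of both, from GENCODE M21 transcripts (GRCm38), hold 2 of them, shown in capitals.
Bcl2a1b, chr9:89199360-89199449, plus strand: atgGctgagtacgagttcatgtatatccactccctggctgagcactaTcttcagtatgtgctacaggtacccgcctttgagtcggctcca
Bcl2a1d, chr9:88731630-88731719, minus strand: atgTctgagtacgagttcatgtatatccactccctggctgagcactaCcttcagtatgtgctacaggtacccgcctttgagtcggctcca
A read that lies within the coding bases and covers none of these positions matches both genes. The sources used here do not give how the authors' counting shared such reads, so single-copy values are uncertain. Gm29094, a protein-coding gene on the same strand, also overlaps Bcl2a1b, and an antisense gene, Gm10634, overlaps Bcl2a1d. How reads in these overlaps were counted is not given either.

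By level per gene length, the pore-forming effector Bak1 and the pro-survival gene Mcl1 were the highest of the 10 genes. Over the 8 libraries, Bak1 averaged 70.8 ± 9.26 FPKM (SD, n = 8), Mcl1 45.7 ± 4.89 FPKM and Bcl2l1 21.4 ± 2.16 FPKM, and the ranges of these 3 genes did not overlap. The next 4 were Bad at 12.2 ± 5.13 FPKM, Bcl2 at 7.21 ± 2.02 FPKM, Pmaip1 at 6.48 ± 1.10 FPKM and Bcl2l11 at 4.40 ± 0.718 FPKM. Neighbours among these 4 overlapped, and the highest library of Bad also reached the lowest of Bcl2l1 (both 18.7 FPKM). Bid averaged 2.04 ± 0.227 FPKM and Bcl2a1d 1.65 ± 0.641 FPKM, again with overlap, and Bcl2a1b was lowest at 0.258 ± 0.205 FPKM. Among the pro-survival genes, Bcl2 thus stood below Mcl1 and Bcl2l1 in every library, at 4.43 to 10.9 FPKM against 39.7 to 53.6 FPKM for Mcl1 and 18.7 to 25.3 FPKM for Bcl2l1.

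**Figure D1:**
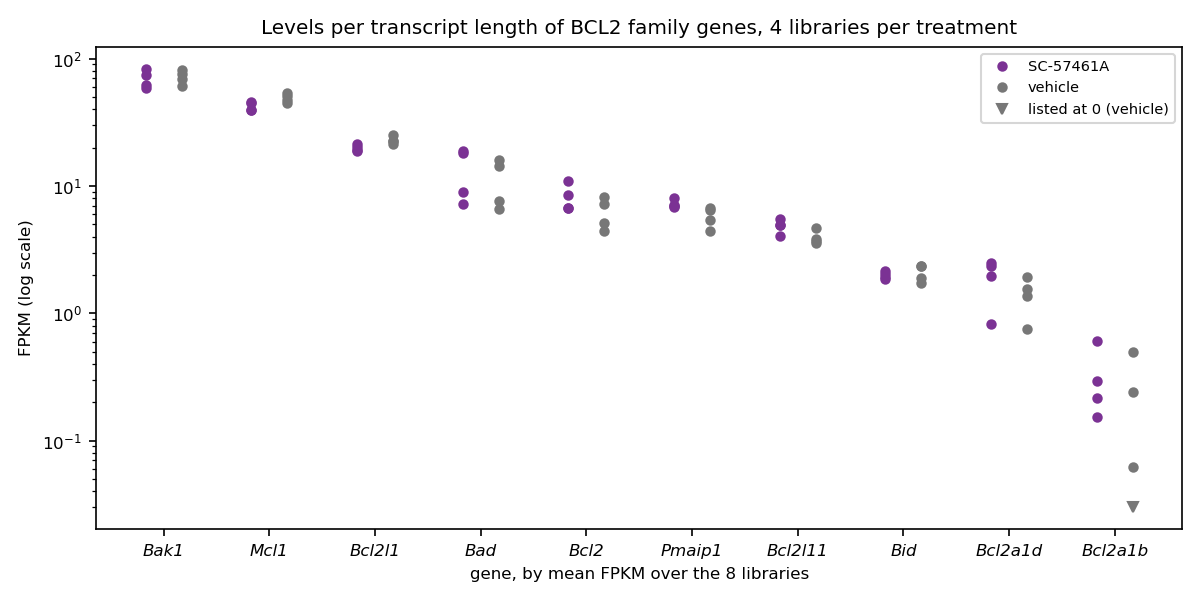
Deposited FPKM (log axis) of the 10 genes, ordered by mean FPKM over the 8 libraries, with 1 point per library, SC-57461A left of vehicle for each gene and a triangle for the vehicle library listed at 0. Bak1 lies at 59.3 to 83.0 FPKM, Mcl1 at 39.7 to 53.6 FPKM and Bcl2a1b at 0 to 0.602 FPKM.

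Across treatments, Bcl2 was the only member to pass in an edgeR fit of all 8 libraries, and it did so only with library set in the model. In the pooled edgeR fit, 0 of the 10 genes passed in either direction, against 0.331% of all genes, and 2 (Pmaip1 and Bcl2l11) had an unadjusted p under 0.05, against 6.68% of all genes. With DESeq2 on the pooled libraries the members that passed were also 0, against 1.44% of all genes, and 3 (Mcl1, Pmaip1 and Bcl2l11) had an unadjusted p under 0.05, against 5.27%. In set A alone and in set B alone 0 passed, against 0.624% and 0.681% of all genes. In the set-adjusted edgeR fit, 1 of 10 passed, Bcl2 (higher), against 5.33% of all genes, and 6 had an unadjusted p under 0.05, against 22.4%. DESeq2 with library set called 3, namely Bcl2 and Bcl2l11 (higher, against 5.43% of all genes) and Mcl1 (lower, against 7.06%), or 12.5% of genes in either direction. The median log2 fold change of the 10 was 0.31 in the pooled fit and 0.30 in the set-adjusted fit, against 0.0094 and 0.0044 over all genes tested. Its size without sign was 0.31 and 0.30, against 0.16 over all genes in both fits. In DESeq2, which kept genes of lower counts, the gap was smaller. There the size was 0.297 for the members against 0.265 for all genes on the pooled libraries, and 0.287 against 0.262 with library set. In both edgeR fits 6 members had a positive and 4 a negative estimate. By TMM-scaled CPM, the treatments did not overlap for 2 of the 10 genes, Pmaip1 (higher, against 3.01% of all genes) and Mcl1 (lower, against 3.13%), where 6.13% of genes did so in either direction. Within both sets at once they did not overlap for 3, Bcl2 and Pmaip1 (higher, against 9.63% of all genes) and Mcl1 (lower, against 10.3%), where 19.9% of genes did so in either direction.

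**Figure D2:**
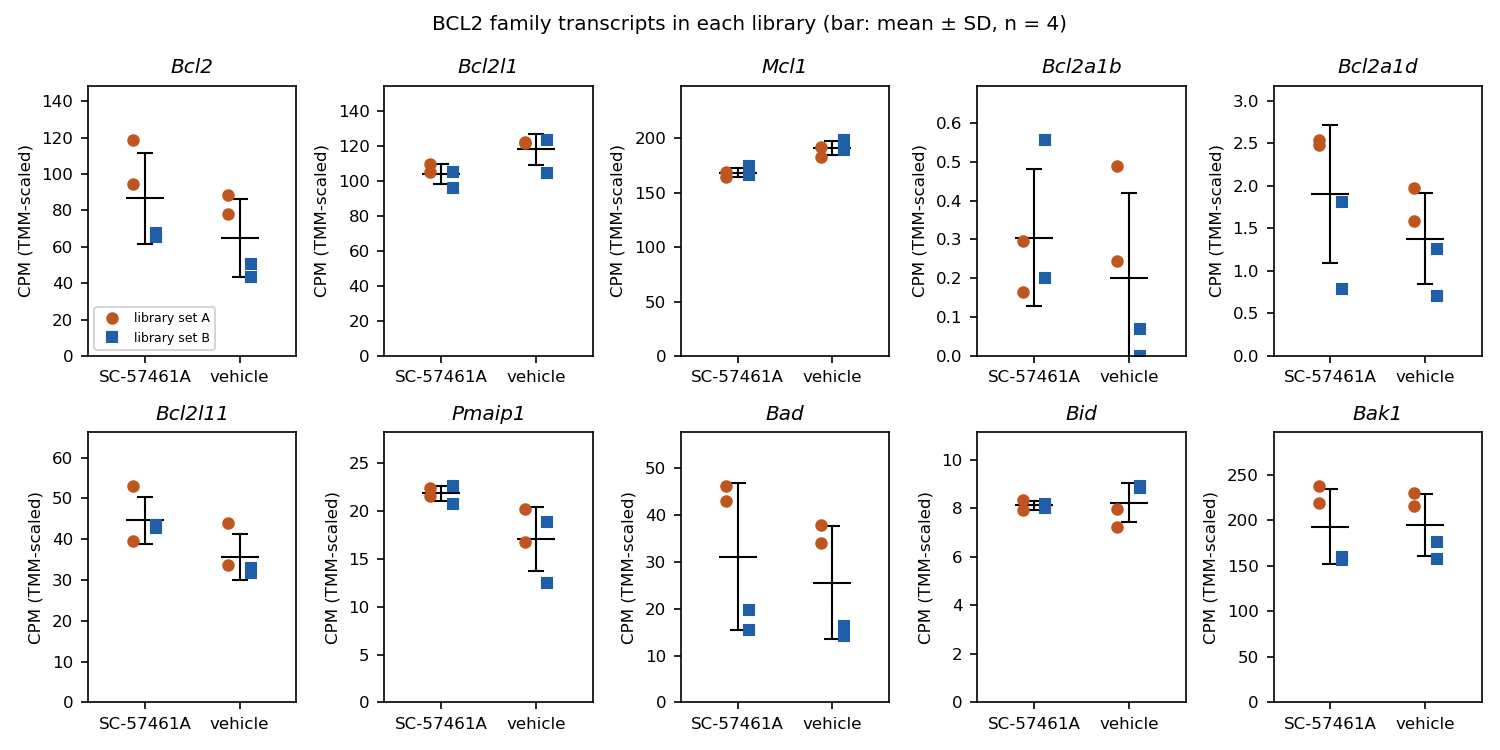
TMM-scaled CPM of each gene in each library, with SC-57461A left of vehicle, circles for set A, squares for set B and bars for the mean ± SD (n = 4). Pmaip1 (20.8 to 22.6 CPM with SC-57461A, 12.5 to 20.2 CPM with vehicle) and Mcl1 (164 to 174 CPM with SC-57461A, 183 to 199 CPM with vehicle) are the genes whose treatments do not overlap, and Bcl2 is parted by treatment within each set.

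Bcl2 (ENSMUSG00000057329, mm10 chr1:106538178-106714274, minus strand) encodes the founding pro-survival protein. SC-57461A replicates 1 to 4 held 65.6, 118.6, 94.5 and 67.3 CPM, and vehicle replicates 1 to 4 held 88.3, 77.8, 50.3 and 43.1 CPM. The treatments overlapped as a whole, because the set A vehicle libraries lay above the set B SC-57461A libraries, but within set A and within set B both SC-57461A libraries were higher than both vehicle libraries, in CPM scaled by TMM or by library totals and in FPKM. The means were 86.5 ± 25.2 CPM with SC-57461A and 64.9 ± 21.6 CPM with vehicle (SD, n = 4 each). The log2 fold change was 0.42 (SE 0.28, 95% interval -0.22 to 1.05) in the pooled edgeR fit, adjusted p = 0.902. With library set as a term it was 0.43 (SE 0.089, 95% interval 0.24 to 0.63), a 1.35-fold rise, adjusted p = 0.0176, and DESeq2 with library set gave 0.42 with an adjusted p of 0.000232. The estimates were 0.36 in set A alone and 0.51 in set B alone, with edgeR adjusted p of 0.268 and 0.112 at 2 libraries a group. Leaving out 1 library at a time gave 0.22 (without SC-57461A replicate 2) to 0.59 (without vehicle replicate 1) in the pooled edgeR fit and 0.37 to 0.50 in the set-adjusted one. The set-adjusted call held in 4 of 8 cases and was lost without SC-57461A replicate 1 (adjusted p = 0.0514), SC-57461A replicate 4 (0.0729), vehicle replicate 2 (0.0884) or vehicle replicate 4 (0.0700). An antisense gene, D630008O14Rik, overlaps Bcl2, and without the strand of counting its reads cannot be told from those of Bcl2.

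Mcl1 (ENSMUSG00000038612, chr3:95658721-95663176, plus strand) encodes a short-lived pro-survival protein that many lymphocytes depend on. SC-57461A replicates 1 to 4 held 167, 164, 169 and 174 CPM, and vehicle replicates 1 to 4 held 183, 193, 199 and 189 CPM. Every SC-57461A library was below every vehicle library on this scale. In CPM by library totals the ranges met, at 157 to 179 CPM with SC-57461A and 177 to 209 CPM with vehicle, and so did the FPKM, at 39.7 to 45.5 with SC-57461A and 44.5 to 53.6 with vehicle. The log2 fold change was -0.18 in both edgeR fits (pooled SE 0.085, adjusted p = 0.776; set-adjusted SE 0.058, 95% interval -0.31 to -0.052, adjusted p = 0.0999), a ratio of 0.883. Set A alone gave -0.17 and set B alone -0.19. DESeq2 with library set as a term gave -0.19 with an adjusted p of 0.0107.

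Bcl2l1 (ENSMUSG00000007659, chr2:152780668-152831728, minus strand) encodes the pro-survival BCL-XL and, by splicing, the shorter pro-death BCL-XS, which gene counts add together. SC-57461A replicates 1 to 4 held 105.5, 109.8, 105.2 and 96.1 CPM, and vehicle replicates 1 to 4 held 122.1, 122.4, 104.9 and 123.6 CPM. The groups overlapped only through vehicle replicate 3, which lay beside the SC-57461A libraries. The log2 fold change was -0.18 in both edgeR fits, and neither passed (pooled SE 0.098, adjusted p = 0.831; set-adjusted SE 0.069, 95% interval -0.33 to -0.031, adjusted p = 0.149). Each set alone also gave -0.18.

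The A1 genes had the lowest counts of the 10, and Bcl2a1b came near the limit of 3 counts. Bcl2a1d had 90, 120, 121 and 41 counts in SC-57461A replicates 1 to 4, and 121, 78, 72 and 52 counts in vehicle replicates 1 to 4. Bcl2a1b had 10, 14, 8 and 29 counts with SC-57461A, and 15, 24, 4 and 0 counts with vehicle. Both genes overlapped between the treatments, and the vehicle count of 0 allows up to 0.0422 CPM by library totals. The log2 fold change of Bcl2a1d was 0.47 (SE 0.43) in the pooled and 0.46 (SE 0.29) in the set-adjusted edgeR fit, adjusted p = 0.969 and 0.386, and 0.50 and 0.42 in set A and set B alone. Leaving out 1 library gave 0.25 (without vehicle replicate 4) to 0.73 (without SC-57461A replicate 4) in the pooled fit and 0.21 (without SC-57461A replicate 1) to 0.66 (without SC-57461A replicate 4) in the set-adjusted fit. That of Bcl2a1b was 0.62 (SE 1.02) and 1.06 (SE 0.94), adjusted p = 0.999 and 0.555, and its interval, -0.99 to 3.11 in the set-adjusted fit, spans a fall as well as a large rise. Set A alone gave -0.65 and set B alone, where vehicle had 4 and 0 counts, 3.48 (95% interval 0.65 to 6.31, edgeR adjusted p = 0.281). Leaving out 1 library gave 0.16 (without SC-57461A replicate 4) to 1.52 (without vehicle replicate 2) in the pooled fit and 0.33 (without vehicle replicate 4) to 1.80 (without SC-57461A replicate 3) in the set-adjusted fit. With the counts of Bcl2a1a, Bcl2a1b and Bcl2a1d added up, the SC-57461A replicates held 104, 140, 134 and 80 counts and the vehicle replicates 146, 102, 80 and 52. By CPM, SC-57461A replicates 2 and 3 (2.96 and 2.75 CPM) then lay above all vehicle libraries (0.701 to 2.38 CPM) and replicates 1 and 4 (2.10 and 1.53 CPM) among them. Within each set both SC-57461A libraries lay above both vehicle libraries, as they did for 9.63% of all genes. Fitted as 1 gene, the sum changed by 0.51 on the log2 scale in the pooled edgeR fit (adjusted p = 0.934) and by 0.57 (SE 0.25, 95% interval 0.035 to 1.11) in the set-adjusted one (adjusted p = 0.197).

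Of the BH3-only genes, Bcl2l11 (ENSMUSG00000027381, chr2:128126038-128162547, plus strand) encodes BIM, which can bind every pro-survival member and is held down by cytokine signals in lymphocytes. SC-57461A replicates 1 to 4 held 42.7, 52.9, 39.6 and 43.6 CPM, and vehicle replicates 1 to 4 held 44.0, 33.7, 31.6 and 33.0 CPM. Vehicle replicate 1 was the only vehicle library as high as the SC-57461A ones, so that the groups were apart in set B and overlapped in set A. The log2 fold change was 0.33 (SE 0.14, 95% interval 0.0080 to 0.65) in the pooled edgeR fit, adjusted p = 0.729. It was 0.33 (SE 0.11, 95% interval 0.10 to 0.56) in the set-adjusted fit, adjusted p = 0.0948, a ratio of 1.26. Set A alone gave 0.25 and set B alone 0.41. It passed in 1 of 8 set-adjusted edgeR fits that left out 1 library, the one without SC-57461A replicate 3 (0.42, adjusted p = 0.0387), while the other 7 gave 0.25 to 0.43 with adjusted p of 0.0627 to 0.285. With library set as a term, DESeq2 gave 0.32 (adjusted p = 0.0434).

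Pmaip1 (ENSMUSG00000024521, chr18:66458604-66465550, plus strand) encodes NOXA, which binds MCL-1 and A1 and is a known target of p53 and of the stress-response factor ATF4. SC-57461A replicates 1 to 4 held 22.6, 21.6, 22.4 and 20.8 CPM, and vehicle replicates 1 to 4 held 16.8, 20.2, 18.8 and 12.5 CPM. Each SC-57461A library lay above every vehicle library, also in FPKM and in CPM by library totals, and the vehicle libraries were more spread (SD 0.823 CPM with SC-57461A and 3.35 CPM with vehicle, n = 4 each). The log2 fold change was 0.35 (SE 0.15, 95% interval 0.019 to 0.69) in the pooled edgeR fit and 0.36 (SE 0.12, 95% interval 0.090 to 0.63) in the set-adjusted fit, a ratio of 1.28. Neither passed over all genes, at adjusted p = 0.713 and 0.117. Set A alone gave 0.26 and set B alone 0.47, and without vehicle replicate 4, the lowest library, both fits gave 0.23.

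Bad (ENSMUSG00000024959, chr19:6941861-6951898, plus strand) encodes a BH3-only protein that survival kinases such as AKT and PIM hold inactive by phosphorylation. SC-57461A replicates 1 to 4 held 15.5, 43.0, 46.1 and 19.8 CPM, and vehicle replicates 1 to 4 held 34.1, 37.8, 14.1 and 16.3 CPM. The libraries parted by set rather than by treatment, with set A at 40.3 CPM on average and set B at 16.4 CPM. The log2 fold change was 0.28 in the pooled edgeR fit (SE 0.44, adjusted p = 0.999) and 0.26 in the set-adjusted fit (SE 0.092, 95% interval 0.061 to 0.46, adjusted p = 0.124), so the SE was smaller with the set term and the estimates were close. Set A alone gave 0.31 and set B alone 0.21. In the pooled fit, leaving out 1 library gave 0.022 (without SC-57461A replicate 3) to 0.52 (without vehicle replicate 2), and in the set-adjusted fit 0.21 to 0.34. Gpr137 overlaps Bad on the opposite strand.

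Bid and Bak1 passed in neither fit, with estimates near 0. Bid (ENSMUSG00000004446, chr6:120891930-120916853, minus strand), whose protein links death receptors to mitochondria after cleavage by caspase-8, held 8.17, 7.92, 8.35 and 8.01 CPM in SC-57461A replicates 1 to 4, and 7.21, 7.99, 8.89 and 8.84 CPM in vehicle replicates 1 to 4. The SC-57461A libraries lay inside the vehicle range. The edgeR log2 fold change was -0.021 (SE 0.11, adjusted p = 0.999) in the pooled fit and -0.017 (SE 0.10, 95% interval -0.24 to 0.21, adjusted p = 0.944) in the set-adjusted fit. It was 0.10 in set A alone and -0.14 in set B alone. Bak1 (ENSMUSG00000057789, chr17:27019810-27029009, minus strand), which encodes the pore-forming effector BAK, held 159.6, 237, 218 and 157 CPM with SC-57461A, and 216, 230.1, 157 and 176 CPM with vehicle. Both groups held a high pair from set A and a low pair from set B. Its edgeR log2 fold change was -0.014 (SE 0.18, 95% interval -0.43 to 0.40, adjusted p = 0.999) in the pooled fit and -0.023 (SE 0.066, 95% interval -0.17 to 0.12, adjusted p = 0.881) in the set-adjusted fit. It was 0.034 in set A alone and -0.079 in set B alone. Genes on the opposite strand overlap both, Bcl2l13 for Bid and Ggnbp1 for Bak1.

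**Figure D3:**
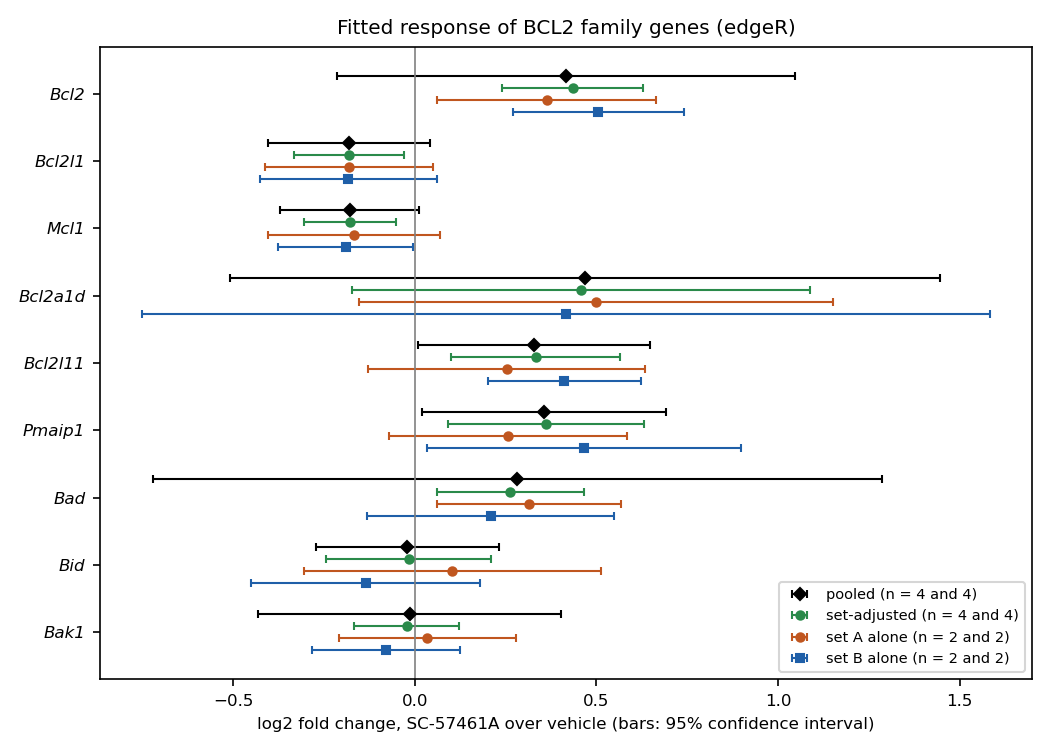
Log2 fold change of SC-57461A over vehicle in edgeR for 9 of the genes, with 95% confidence intervals, from the pooled fit, the set-adjusted fit and each set alone (Bcl2a1b, whose intervals are far wider, is not drawn). The set-adjusted interval of Bcl2 is 0.24 to 0.63, against -0.22 to 1.05 in the pooled fit, and Bid and Bak1 lie on opposite sides of 0 in the sets.

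No member was shown to respond differently in the sets. The interaction of library set and treatment passed for 1 gene of all those tested (0.00662%) and for 0 of the 10 members (edgeR adjusted p of 0.908 to 1.00), with an unadjusted p under 0.05 for Bcl2a1b alone among them, against 4.96% of all genes. For Bcl2 the difference between the responses in sets B and A was 0.15 on the log2 scale (95% interval -0.25 to 0.55). The sets themselves differed for 4 of the 10 members, all lower in set B, against 50.6% of all genes (26.3% lower in set B). These 4 were Bad, at -1.29 on the log2 scale (set B minus set A), Bcl2a1d at -0.91, Bcl2 at -0.76 and Bak1 at -0.47. The set difference of Bcl2 was thus larger than its difference between treatments (0.43).

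Added up per library over the 10 genes alone, pro-survival transcripts were lower on average and BH3-only transcripts higher with SC-57461A. Family genes outside the 10 are not in the sums. Among them are Bbc3, the pro-survival Bcl2l2 (mean 5.41 FPKM over the 8 libraries) and the BH3-only genes Bik (6.69 FPKM) and Bmf (0.172 FPKM). These sums, described without a test, weigh each gene by its FPKM, so the direction is not that of every gene: Bcl2, Bcl2a1b and Bcl2a1d had positive estimates. The 5 pro-survival genes summed to 75.2, 73.5, 69.3 and 72.7 FPKM in SC-57461A replicates 1 to 4, and to 77.3, 79.0, 81.6 and 81.6 FPKM in vehicle replicates 1 to 4. All SC-57461A libraries were below all vehicle libraries. The sum is carried by Mcl1, which made up 58.3 ± 3.65% of it with SC-57461A and 61.3 ± 3.54% with vehicle (SD, n = 4 each), and by Bcl2l1, at 27.3 ± 1.01% and 28.8 ± 1.93%. The share of Bcl2 was 8.92, 14.8, 12.2 and 9.20% in SC-57461A replicates 1 to 4, and 10.5, 9.15, 6.32 and 5.43% in vehicle replicates 1 to 4. Within each set the SC-57461A share was the higher one. The 4 BH3-only genes summed to 22.3, 32.3, 31.6 and 23.1 FPKM with SC-57461A, and to 26.1, 28.0, 19.3 and 18.3 FPKM with vehicle. They overlapped over all libraries and were higher with SC-57461A within each set. The largest term on average was Bad, which passed in neither fit and went with library set, at 13.2 ± 6.00 FPKM with SC-57461A and 11.2 ± 4.73 FPKM with vehicle (SD, n = 4 each). Since Bcl2 and Bcl2l11 both had positive estimates, their FPKM ratio differed little, at 1.69 ± 0.396 with SC-57461A and 1.58 ± 0.390 with vehicle.

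**Figure D4:**
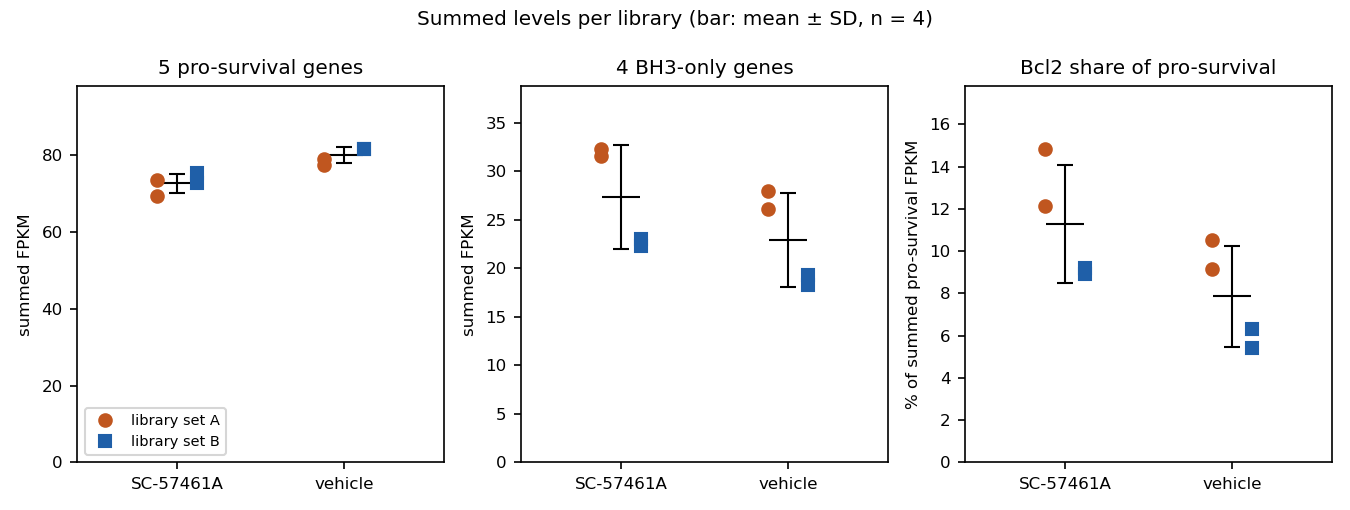
Summed FPKM of the 5 pro-survival genes and of the 4 BH3-only genes, and Bcl2 as a percent of the pro-survival sum, per library with the mean ± SD (n = 4), SC-57461A left of vehicle, circles for set A and squares for set B. The pro-survival sum is 69.3 to 75.2 FPKM with SC-57461A and 77.3 to 81.6 FPKM with vehicle, and the other panels part by treatment within each set.

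Around the family, 5 lists of genes of the same pathway held 63 tested genes. Of these, 0 were called in the pooled edgeR fit, against 0.331% of all genes, and 4 had an unadjusted p under 0.05, against 6.68% of all genes. DESeq2 on the pooled libraries called 2 of 68, Bnip3 (higher) and Pim2 (lower), against 1.44% of all genes. Of the caspase, apoptosome and mitochondrial factor genes (Apaf1, Cycs, Diablo and others), 17 of 17 were tested and 0 passed in the set-adjusted edgeR fit, against 5.33% of all genes. In that fit 3 had an unadjusted p under 0.05, against 22.4% of all genes, and the median log2 fold change was 0.064. Of 11 death receptor genes (Fas, Fadd, Ripk1 and others), 10 were tested and 0 passed, against the same 5.33%. There 1 had an unadjusted p under 0.05, against the same 22.4%, and the median was 0.0066. DESeq2 with library set, which called 12.5% of all genes, called 0 of the caspase list and 1 of the 11 death receptor genes. That was Tnfrsf1b, a receptor for tumour necrosis factor (-0.21, adjusted p = 0.0134).

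Of 14 other BCL2 family genes, 9 were tested and 1 rose in the set-adjusted edgeR fit, against 2.83% of all genes. It was Bnip3, which encodes a BH3-containing receptor for the removal of mitochondria. Bnip3 averaged 180 ± 24.7 CPM with SC-57461A and 122 ± 17.5 CPM with vehicle (SD, n = 4 each), and every SC-57461A library was above every vehicle library. Its log2 fold change was 0.56 (SE 0.067), adjusted p = 0.000632, against 0.307 in the pooled edgeR fit and 0.0392 in pooled DESeq2, and the set-adjusted call held when any 1 library was left out. Transcripts up to 98.8% identical to Bnip3, such as Gm16439, can share its reads. The pro-death gene Bmf and the related mitochondrial receptor Bnip3l did not pass in that fit, at -0.51 and 0.26 on the log2 scale (set-adjusted edgeR adjusted p = 0.299 and 0.0706). DESeq2 with library set called 2 of 11 higher, Bnip3l (0.25, adjusted p = 0.0239) and Bnip3, against 5.43% of all genes.

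Of 8 inhibitor of apoptosis genes, 7 were tested and 2 fell in the set-adjusted edgeR fit, against 2.5% of all genes. They were Naip6 (-0.53, SE 0.084, adjusted p = 0.00512) and Naip5 (-0.41, SE 0.095, adjusted p = 0.0311), at -0.52 and -0.39 in the pooled edgeR fit (adjusted p = 0.772 and 0.832). DESeq2 with library set called 3 of 8 lower, Naip6, Naip5 and Naip2 (Naip2 at -0.32, adjusted p = 0.0264), against 7.06% of all genes. Naip5 encodes a flagellin receptor of the NAIP inflammasome, and both carry the repeats that gave the list its name. Naip6 averaged 14.1 ± 3.81 CPM with SC-57461A and 20.2 ± 5.11 CPM with vehicle, and Naip5 12.1 ± 3.19 CPM with SC-57461A and 15.8 ± 3.02 CPM with vehicle (SD, n = 4 each). Their transcripts were 96.9% identical over 4398 bases, so that reads may be shared and the 2 calls are uncertain as separate ones. The call of Naip6 held in all 8 fits that left out 1 library and that of Naip5 in 1 of 8 (without vehicle replicate 3), with adjusted p of 0.0242 to 0.101.

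Of 21 regulators of the family's transcription and turnover, 20 were tested. In the set-adjusted edgeR fit 1 rose, Atf4, against 2.83% of all genes, and 3 fell, Pim2, Nfkb1 and Foxo1, against 2.5%. In the pooled edgeR fit these 4 were at 0.26, -0.41, -0.37 and -0.33 (adjusted p = 0.917, 0.237, 0.904 and 0.606). DESeq2 with library set called 1 of 21 higher and 5 lower, against 5.43% and 7.06% of all genes. The calls were these 4, Ywhab (-0.18, adjusted p = 0.0273) and Ywhaz (-0.16, adjusted p = 0.0464). Ywhab and Ywhaz encode 14-3-3 proteins, a family that binds phosphorylated BAD. Pim2, a kinase that phosphorylates BAD in lymphocytes, held 112, 112, 103 and 110.1 CPM in SC-57461A replicates 1 to 4, and 138, 142, 140.02 and 161 CPM in vehicle replicates 1 to 4. The groups were well apart, at a log2 fold change of -0.41 (SE 0.067, adjusted p = 0.00542), and the call held in all 8 fits that left out 1 library. Foxo1, a transcription factor that can switch on Bcl2l11, averaged 47.7 ± 6.41 CPM with SC-57461A and 60.1 ± 3.90 CPM with vehicle (SD, n = 4 each), at -0.34 (SE 0.083, adjusted p = 0.0380). Nfkb1, a subunit of NF-kappa B, changed by -0.38 (SE 0.073, adjusted p = 0.0145), and Atf4, a factor of the integrated stress response, by 0.26 (SE 0.061, adjusted p = 0.0342). For Foxo1 the call held in 1 of 8 leave-one-out fits (without vehicle replicate 3), with adjusted p of 0.0172 to 0.126. For Atf4 it held in 2 of 8 (without SC-57461A replicate 2 or vehicle replicate 3; 0.0340 to 0.145), and for Nfkb1 in 5 of 8, being lost without SC-57461A replicate 4, vehicle replicate 2 or vehicle replicate 4 (0.0115 to 0.0671).

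Because Foxo1 and Atf4 passed in the set-adjusted fit, promoters were searched for 7 short motifs after these values had been seen. RefSeq windows (GRCm38.p6) were searched for 9 of the 10 members, 13 windows in all. Pmaip1 was not searched, so the matches say nothing of its promoter. The 250 bases before each start site were read on both strands. The motifs, with the share of all 32851 windows that hold each, were FOXO GTAAACA (3.17%), the ATF4 CARE TGATGNAA (3.45%), CRE TGACGTCA (1.55%), the CRE core TGACGT (6.47%, held by every full CRE), STAT TTCNNNGAA (7.02%), SRE TCACNCCAC (1.05%) and an NF-kappa B motif (0.356%). A match was found in 3 of the 13 windows: a CRE core before Bcl2, a FOXO motif before Bcl2l11 and a CARE motif before Bcl2a1b. The stretches around the first 2 are shown with the motif in capitals, because Bcl2 and Bcl2l11 were the members with the lowest set-adjusted adjusted p.
Bcl2, chr1:106714362-106714427, minus strand, first motif base 107 bases upstream of the start site: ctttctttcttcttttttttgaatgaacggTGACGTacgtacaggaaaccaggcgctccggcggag
Bcl2l11, chr2:128125788-128125847, plus strand, first motif base 227 bases upstream of the start site: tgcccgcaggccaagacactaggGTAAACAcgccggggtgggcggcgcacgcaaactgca
These are matches of letters in a window, with shares of windows as given, and no binding was measured.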

How the data were processed

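Reads were processed with cutadapt 4.7 and FastQC on build mm10, per the submitters' processing notes; the sources used here name no aligner, counter, annotation or strand setting. Per the file headers, the table deposited by the submitters has raw counts and FPKM values for every gene and library, both made by the authors, and 0 value columns were unmatched to a sample. Symbols came from GENCODE M21 by gene identifier (24998 of 25367 genes).

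Counts were filtered (filterByExpr), scaled by TMM and tested with the two-sided quasi-likelihood test of edgeR 4.0.16 (R 4.3.3), with Benjamini-Hochberg adjustment over the 15095 genes and a threshold of 0.05. CPM are TMM-scaled, except the marker sums and 3-count limits, which use library totals. Library sets were read from the largest gap in summed FPKM. DESeq2 1.42.0, limma 3.58.1 on log2(FPKM + 1), other filters and scalings and leaving out each library were alternatives. Fits were tested on data simulated under each model. Of genes changed by 0.5 on the log2 scale, edgeR recovered 4.48% in the pooled and 74.6% in the set-adjusted fit. The pooled edgeR fit thus missed most changes of that size, so 0 members passing there does not show that none changed. Unchanged genes made up 17.8% of DESeq2 calls on pooled libraries and 8.04% with library set. In edgeR they made up 1.05% (pooled) and 3.78% (set-adjusted). Chi-square over degrees of freedom was 15.8 to 534 for the 28 library pairs, so none was a repeat deposit. Near-identical copies are BLAST 2.17.0 matches with 95% identity or more over 50% or more of a transcript. Python 3.11.15 (matplotlib 3.10.9, scipy 1.17.1, numpy 2.4.6, pandas 2.3.3) handled tables and plots. SEs are the log2 fold change without sign over the square root of edgeR's F. Promoters are from RefSeq.

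The members, gene lists and library sets were chosen with earlier results of these data known. Named were all members, every gene of a list past the threshold in either edgeR fit (at most 6 per list) and, for the 2 members with the largest SD of log2 CPM, the 3 genes of mean FPKM at least 5 with the most similar profile. Bmf, Bnip3l, the genes called by DESeq2 alone and the motifs were chosen after their values were seen.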

Additional observations from a re-analysis of the deposited data

Results flagged for a closer look

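Of 20 groups of 4 libraries (10 genes in 2 treatments), 2 held a library far from the other 3 by Dixon's criterion, where chance gives about 1 in 20. Bcl2l1 in vehicle replicate 3 was low, at 104.9 CPM, against 122.1 to 123.6 CPM in the other vehicle libraries. Bcl2l11 in vehicle replicate 1 was high, at 44.0 CPM, against 31.6 to 33.7 CPM in the others. Each is the library through which its gene's treatments overlap.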

How the results depend on the processing

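The call of Bcl2 depends on the model: over 29 alternatives its log2 fold change was 0.22 to 0.59, always positive, and it passed in 7, all with library set as a term. Members called were 1 higher in the set-adjusted edgeR fit (also with the Bcl2a1 copies summed, an alternative chosen after seeing the data), 2 higher and 1 lower (Bcl2, Bcl2l11 and Mcl1) in DESeq2 with library set, and 0 to 2 higher in set-adjusted fits without 1 library. Over all genes, 41 were higher and 9 lower in the pooled edgeR fit. The counts were 118 and 77 in DESeq2, 427 and 377 set-adjusted, 660 and 858 in DESeq2 with library set, 77 and 21 in set A alone, 86 and 16 in set B alone, and 24 higher in limma on log2(FPKM + 1) with no filter. Without 1 library at a time, the pooled fit called 25 to 31 higher and 3 to 7 lower, and the set-adjusted fit 151 to 483 and 89 to 490. With the replicate number as a block, edgeR called 14 and 1. Deviations of same-numbered libraries correlated at -0.71, 0.73, -0.66 and 0.73, and not every library correlated best with its own number. The correlations were positive within a library set and negative between the sets. They therefore cannot show whether the numbers pair libraries. Under the block Bcl2 was at 0.44 (edgeR adjusted p = 0.998).

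The sign changed for Bak1 (0.034 in set A alone, -0.13 to 0.075 without 1 library), Bid (0.10 in set A alone, -0.087 to 0.017 without 1 library) and Bcl2a1b (-0.65 in set A alone, 3.48 in set B alone), none of which passed anywhere; the cause was not tested. The sets were read from the data, and 4 libraries a treatment leave the pooled intervals of Bcl2, Bad and both Bcl2a1 genes wide. Counts of Bcl2a1b, at 0 to 29, limit it further.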

Other observations

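The profile of Bad over the 8 libraries (SD of log2 CPM 0.70, the largest of the members) was nearest to those of Gm5529, Cuta and Tfpt, with a root mean square difference of centred log2 CPM of 0.055, 0.079 and 0.10 among 7039 genes searched. For Bcl2a1d (SD 0.51), the nearest of 7040 were Gm10709, Gm8730 and Gm8203, at 0.19, 0.22 and 0.22.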
